A study of Mus musculus with 6 samples.

Results

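The vasopressin and oxytocin system was taken as 5 named genes of the 27884 in the deposited table, chosen by symbol: the peptide precursors Avp and Oxt, the RNA-binding protein gene Caprin2, and the receptors Avpr1a and Oxtr. All 5 passed the low-count filter that left 18640 genes to be tested. Their levels were compared between RNA bound to tagged ribosomes of PNOC cells (IP, 3 libraries) and total RNA of the same preoptic tissue (Input, 3 libraries). All animals were female NuTRAP::Pnoc-Cre mice of 17 to 18 weeks, with no treatment stated, and each replicate pooled the preoptic punches of 3 of them, so IP and Input share genotype, sex, age and pool. NuTRAP is a reporter that puts EGFP on ribosomes wherever Cre has acted, and here Cre is driven by Pnoc, the gene of the nociceptin precursor. Because a Cre reporter stays on once switched, a tagged cell need not have been expressing Pnoc when the tissue was taken.

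Vasopressin and oxytocin are closely related short peptides made in large neurons of the supraoptic and paraventricular nuclei and in smaller hypothalamic cells, vasopressin also in the suprachiasmatic nucleus just below the preoptic area. Each is cut from a precursor that carries a neurophysin, its carrier protein. Vasopressin saves water and raises blood pressure, oxytocin drives milk ejection and labour, and both act in the brain on social behaviour and body temperature. In mouse brain the main receptors, encoded by Avpr1a and Oxtr, signal through Gq proteins to release calcium. Caprin2 protein is known, from work in rats, to bind vasopressin mRNA and regulate the length of its poly(A) tail in osmotic stress.

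Avp (ENSMUSG00000037727) and Oxt (ENSMUSG00000027301) lie tail to tail on chromosome 2 of mm39, with 3565 bases between them. In the table Avp runs from 130422540 to 130424474 on the minus strand and Oxt from 130418093 to 130418974 on the plus strand. Exon 2 of each gene, of 202 bases and wholly coding, encodes the shared core of the neurophysins and is shown because reads from it can fall in either gene. Avp exon 2 is chr2:130422976-130423177 and Oxt exon 2 is chr2:130418511-130418712 (mm39, GENCODE M39, each on the strand of its gene). Capitals mark the 9 bases that differ.
Avp exon 2: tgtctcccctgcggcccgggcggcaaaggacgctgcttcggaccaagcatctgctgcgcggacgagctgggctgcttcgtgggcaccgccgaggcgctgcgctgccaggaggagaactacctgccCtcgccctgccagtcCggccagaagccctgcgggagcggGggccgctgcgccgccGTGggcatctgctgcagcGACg
Oxt exon 2: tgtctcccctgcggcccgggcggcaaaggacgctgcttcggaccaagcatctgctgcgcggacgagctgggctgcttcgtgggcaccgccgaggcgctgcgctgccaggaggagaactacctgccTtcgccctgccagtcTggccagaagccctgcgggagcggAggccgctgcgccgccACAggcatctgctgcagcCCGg
The first 125 bases are identical and the exons share 95.5% of their bases. Of the 669 windows of 75 bases, the read length, in the Avp mRNA of 743 bases, 53 (7.92%) occur unchanged in the Oxt mRNA. In the shorter Oxt mRNA of 539 bases the same 53 windows are 11.4% of 465. These shares are for single reads, although the reads were paired, and the place of the mate was not considered. How the authors' counting treated reads that match both is not given in the sources used here, so a small part of either count may belong to the other gene.

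The stretches of 250 bases before the start sites of Avp and Oxt are shown because both genes fell in IP. They come from RefSeq on GRCm38.p6, an older build than mm39, where Avp has chr2:130582589-130582838 (minus strand) and Oxt chr2:130575919-130576168 (plus strand); all 5 genes had an entry. Capitals mark CACGTG, the E-box known as a site of the clock factors CLOCK and BMAL1, and AGGTCA or its reverse complement TGACCT, a core element bound by many nuclear receptors.
Avp promoter: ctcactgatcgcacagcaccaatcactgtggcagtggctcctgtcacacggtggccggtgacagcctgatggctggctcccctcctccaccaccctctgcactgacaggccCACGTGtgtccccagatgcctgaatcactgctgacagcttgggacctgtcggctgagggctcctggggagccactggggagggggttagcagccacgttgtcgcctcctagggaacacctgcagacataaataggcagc
Oxt promoter: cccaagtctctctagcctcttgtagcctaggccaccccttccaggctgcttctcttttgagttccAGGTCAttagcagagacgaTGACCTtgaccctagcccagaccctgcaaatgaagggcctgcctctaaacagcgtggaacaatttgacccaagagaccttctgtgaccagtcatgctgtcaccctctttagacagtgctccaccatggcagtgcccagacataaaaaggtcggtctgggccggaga
The Avp stretch holds CACGTG at 139 to 134 bases before the start and no AGGTCA, while the Oxt stretch holds AGGTCA at 185 to 180 and TGACCT at 166 to 161 bases and no CACGTG. Oxtr holds one of each, CACGTG at 43 to 38 and AGGTCA at 98 to 93 bases, and neither Caprin2 nor Avpr1a holds either motif. Both strands were searched and the motifs do not overlap. Of 32851 promoter stretches of this length 6.02% hold CACGTG and 14.0% hold AGGTCA on either strand, so the matches describe the letters only.

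The libraries were of like depth, with 48204567 to 51380354 counts in IP and 49068467 to 53056642 in Input. Pnoc had 41.1 to 47.7 CPM (counts relative to the TMM-scaled library size) in IP, against 7.51 to 13.2 CPM in Input, higher in every IP library as the labels call for. Across all genes tested, edgeR's quasi-likelihood test at a Benjamini-Hochberg adjusted p under 0.05 called 12.9% higher and 17.1% lower in IP, 30.0% in all. With library totals alone as the scaling, higher genes were 32.0% of the calls, against 42.9% with TMM, and the median of all genes moved by -0.11 on the log2 scale. None of the 5 genes changed direction with it.

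Avp, Oxt and Caprin2 fell in IP, and neither receptor gene passed the threshold. That is 3 of 5 genes lower where 17.1% of all tested genes were, and 0 of 5 higher where 12.9% were (edgeR). Oxtr was the 1 gene higher by unadjusted p (under 0.05, edgeR) and the 1 gene called higher by DESeq2. DESeq2 called the same 3 genes lower. Each of the 3 fell by 2-fold or more and passed the threshold, as did 12.2% of all tested genes. All 3 IP libraries lay below all 3 Input libraries for Avp and Caprin2, as for 26.0% of all tested genes, and above them for Oxtr, as for 21.7%. In bulk libraries such as these, fewer cells of a type and less RNA per cell cannot be told apart. IP is also ribosome-bound RNA and Input total RNA, and that difference cannot be told apart from these either.

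Avp, the vasopressin precursor, had 94.3, 71.0 and 143 FPKM (the authors' values, scaled to gene length and library) in IP replicates 1, 2 and 3, against 195, 365 and 391 FPKM in Input replicates 1, 2 and 3. Input replicate 1 was the lowest of the tissue libraries and still stood above every IP library. In counts the gene had 2572, 1885 and 4071 in IP and 6012, 11635 and 11830 in Input. The means were 59.2 ± 20.9 CPM in IP and 186 ± 61.1 CPM in Input (SD, n = 3 each), and Avp fell by 1.65 ± 0.32 on the log2 scale (SE), or 3.14-fold, with adjusted p = 0.00624 in edgeR's quasi-likelihood test. Within pools the IP level was 0.47, 0.19 and 0.36 of the Input level in replicates 1, 2 and 3. The call held without any one library and was lost without both libraries of replicate 2 (-1.31, adjusted p = 0.060, edgeR) or of replicate 3 (-1.78, adjusted p = 0.055, edgeR).

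Oxt, the oxytocin precursor, had 194, 128 and 273 FPKM in IP, against 251, 514 and 596 FPKM in Input, in replicate order. IP replicate 3 stood above Input replicate 1, so the groups overlapped, although in each pool IP was the lower. The counts were 4916, 3169 and 7239 in IP and 7201, 15248 and 16784 in Input. Oxt averaged 106 ± 38.6 CPM in IP and 248 ± 96.8 CPM in Input (SD, n = 3 each), and fell by 1.22 ± 0.35 on the log2 scale (SE), or 2.33-fold, with adjusted p = 0.0310 in edgeR's test. The IP level was 0.75, 0.25 and 0.45 of the Input level in pools 1, 2 and 3. With the replicate as a block Oxt stayed called (-1.19, adjusted p = 0.00454, edgeR). Without the block, the Oxt call was lost in more settings than that of Avp. It was lost without IP replicate 1 (-1.20, adjusted p = 0.075, edgeR), IP replicate 2 (-0.98, 0.096), Input replicate 2 (-1.10, 0.083) or Input replicate 3 (-0.95, 0.129), and without both libraries of replicate 2 (-0.87, 0.195) or replicate 3 (-1.27, 0.117).

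**Figure D1:**
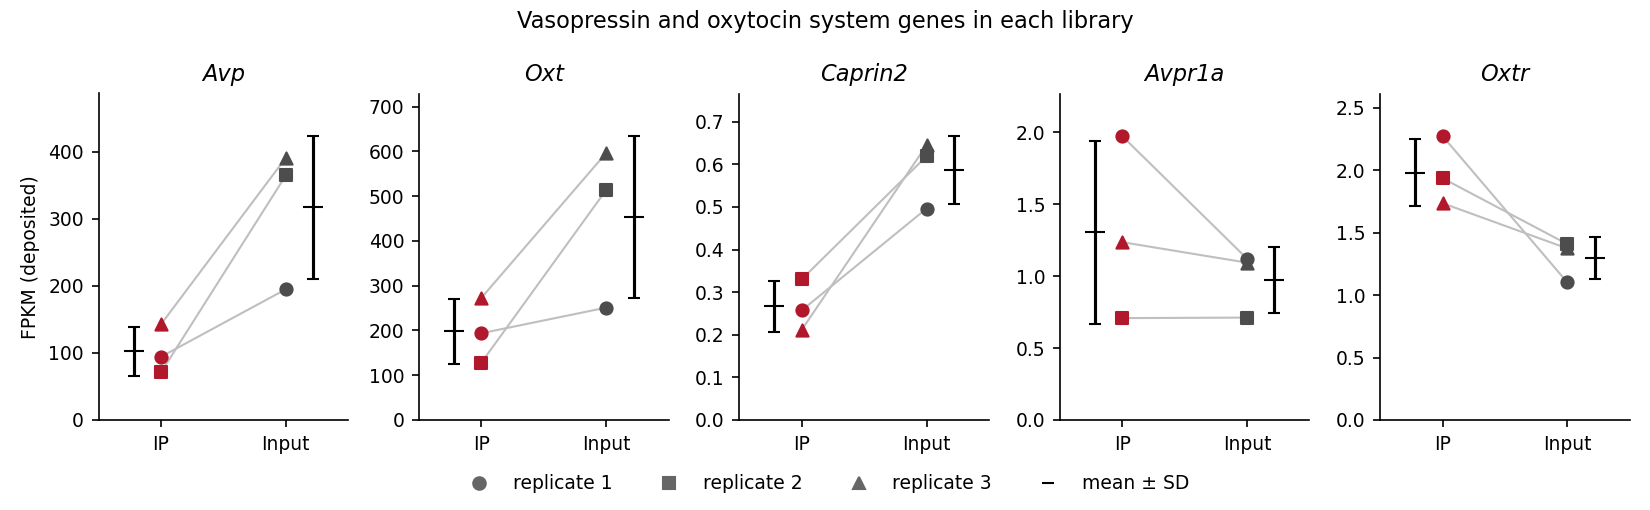
FPKM of the 5 genes (vertical axes, each from 0) in the 3 IP and 3 Input libraries; symbols give the replicate, grey lines join libraries of one pool, and bars are the mean ± SD of 3 libraries. Avp lies between 71.0 and 143 FPKM in IP, below all Input libraries, Oxt and Avpr1a overlap between groups, and Oxtr lies between 1.74 and 2.27 FPKM in IP and between 1.10 and 1.41 FPKM in Input.

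The ratio of Avp to Oxt was lower in every IP library than in any Input library. The Avp count was 0.523, 0.595 and 0.562 of the Oxt count in IP replicates 1, 2 and 3, against 0.835, 0.763 and 0.705 in Input replicates 1, 2 and 3. Such a ratio needs no library scaling. The mean log2 ratio was -0.84 ± 0.09 in IP and -0.39 ± 0.12 in Input (SD, n = 3 each), a difference of -0.45. The exact two-sided permutation test gave p = 0.1, the smallest value this test can give with 3 against 3 libraries. The difference by pool was -0.67, -0.36 and -0.33 in replicates 1, 2 and 3. Together the 2 genes took 0.0155%, 0.0105% and 0.0220% of all counts in IP, against 0.0263%, 0.0507% and 0.0583% in Input.

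**Figure D2:**
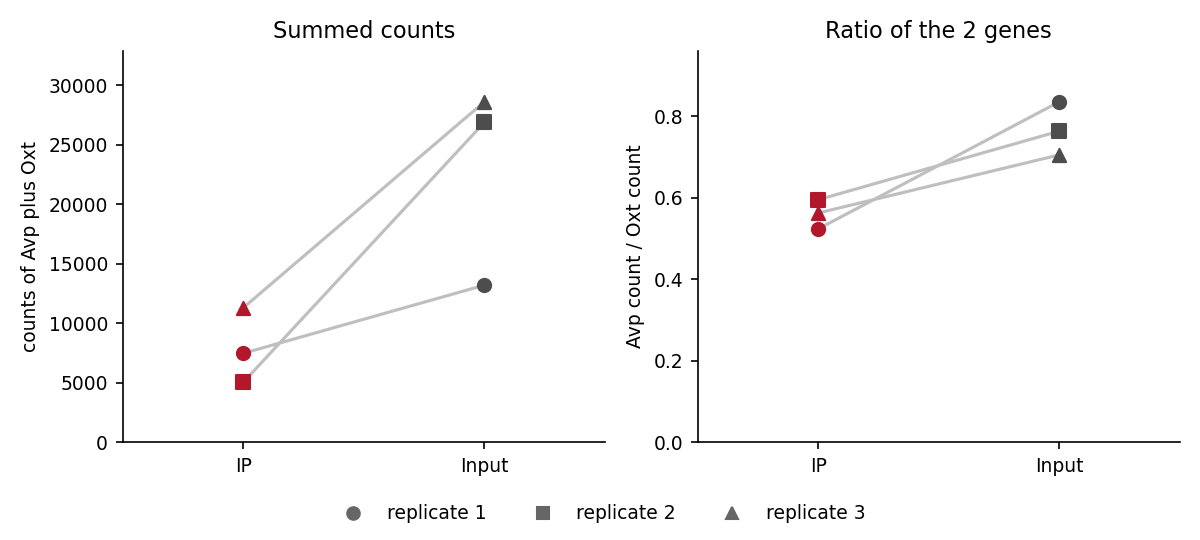
Left, counts of Avp plus Oxt per library; right, the Avp count divided by the Oxt count, both axes from 0, with symbols and lines as replicates and pools. The sums run from 5054 to 11310 in IP and from 13213 to 28614 in Input, and the ratios from 0.523 to 0.595 in IP and from 0.705 to 0.835 in Input.

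Caprin2 (ENSMUSG00000030309, chromosome 6, 148743990 to 148797735, minus strand) had 0.26, 0.33 and 0.21 FPKM in IP, against 0.50, 0.62 and 0.64 FPKM in Input, with no overlap. Its FPKM uses a gene length of 14140 bases, against 577 for Avp and 537 for Oxt. It had 172, 215 and 148 counts in IP and 375, 484 and 478 in Input, far fewer than the peptide genes. Caprin2 fell by 1.17 ± 0.25 on the log2 scale (SE), or 2.24-fold, with adjusted p = 0.0104 in edgeR's test. It averaged 3.77 ± 0.84 CPM in the IP libraries and 8.46 ± 1.07 CPM in the Input libraries (SD, n = 3 each). Within pools the IP level was 0.51, 0.52 and 0.32 of the Input level. The call was lost without Input replicate 3 (-1.06, adjusted p = 0.056, edgeR), without both libraries of replicate 3 (-0.95, 0.136) and after a correction for length and GC content (-0.60, 0.156). A long noncoding gene of the opposite strand overlaps Caprin2 in GENCODE M39, and whether counting used strand is not given in the sources used here.

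Oxtr (ENSMUSG00000049112, chromosome 6, 112450644 to 112466904, minus strand), the oxytocin receptor gene, had 2.27, 1.94 and 1.74 FPKM in IP, against 1.10, 1.41 and 1.37 FPKM in Input. Every IP library stood above every Input library, by a small margin. The counts were 515, 427 and 411 in IP and 282, 373 and 345 in Input. The log2 fold change was 0.59 ± 0.21 (SE) and missed the threshold with adjusted p = 0.067 in edgeR's test. Oxtr passed in DESeq2 (0.61, adjusted p = 0.0495) and after a length correction (0.65, adjusted p = 0.0452, edgeR), and the authors' deposited table gives it 0.61 with an adjusted p of 0.0507.

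Avpr1a (ENSMUSG00000020123, chromosome 10, 122284404 to 122289357, plus strand), a receptor gene through which vasopressin acts on neurons, had 1.97, 0.71 and 1.24 FPKM in IP, against 1.12, 0.71 and 1.09 FPKM in Input. Replicate 1 was high in IP, and replicate 2 was the lowest in both groups, with 87 counts in IP and 105 in Input. The log2 fold change was 0.39 ± 0.42 (SE, adjusted p = 0.52, edgeR), within the spread of the libraries, and it was -0.04 without IP replicate 1. Long noncoding genes of the opposite strand overlap Avpr1a in GENCODE M39, and whether counting used strand is not given in the sources used here.

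Per length, the order of the levels in IP was Oxt, Avp, Oxtr, Avpr1a and Caprin2. In FPKM, Oxt exceeded Avp in every library. Oxt and Avp overlapped in their ranges over libraries, as did Oxtr and Avpr1a, while Caprin2 lay below both receptors in all libraries. Among 17402 protein-coding genes of the table Oxt ranked from 177 to 439 in IP and from 25 to 92 in Input by FPKM, and Avp from 408 to 866 in IP and from 55 to 131 in Input. The receptors ranked far lower, Oxtr from 8933 to 9561 in IP and from 10697 to 11403 in Input. Both peptides therefore remained abundant in the IP libraries, while standing lower than in the tissue.

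Other parts of the pathway were measured on lists chosen by function, and these and the marker lists were chosen with earlier results of these data known. Their counts beside the shares of all tested genes are therefore descriptive only. Of the receptors, Avpr1b had 4 counts in IP replicate 2 and 0 in the other libraries, where a count of 0 allows up to 0.0640 CPM in IP replicate 1 and 0.0580 CPM in Input replicate 1; it was not tested. Lnpep, which encodes the aminopeptidase that degrades oxytocin and vasopressin, had 61.8 to 68.7 CPM in IP and 65.3 to 84.8 CPM in Input, a log2 fold change of -0.16 ± 0.14 (SE, adjusted p = 0.41, edgeR). Cd38, whose product is needed for oxytocin release in mice, fell by 4.36 ± 0.33 (SE, adjusted p = 0.000112, edgeR), with 0.66, 0.48 and 0.36 CPM in IP against 8.33, 10.2 and 12.4 CPM in Input. The lowest log2 fold changes of the astrocyte, oligodendrocyte and microglial markers given below were -3.55, -3.44 and -4.17. Which cells the Cd38 RNA came from was not tested.

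Of 4 tested genes for enzymes that mature the precursors, 1 fell, beside 17.1% of all tested genes. Pcsk1, which encodes a prohormone convertase, fell by 0.52 ± 0.16 on the log2 scale (SE, adjusted p = 0.0402, edgeR), a call lost without any one of IP replicates 1, 2 or 3, Input replicate 1 or Input replicate 3 (adjusted p from 0.065 to 0.143, edgeR). The other convertase gene Pcsk2 stood at 0.11 ± 0.17 (SE) and Pam, which encodes the amidating enzyme, at 0.18 ± 0.16 (SE). Cpe, which encodes the carboxypeptidase that trims the cut peptides, stood at -0.48 ± 0.17 (SE, adjusted p = 0.070, edgeR), and with the replicate as a block it was called lower at -0.47 (adjusted p = 0.0150, edgeR). After correction for gene length Cpe was called lower (-0.53, adjusted p = 0.0303, edgeR), Pam was called higher (0.43, adjusted p = 0.0339, edgeR) and Pcsk1 was not called (-0.41, adjusted p = 0.052, edgeR), and after correction for length and GC content Cpe was again called lower (-0.55, adjusted p = 0.0252, edgeR) and Pcsk1 stood at -0.10.

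Of 4 transcription factor genes needed for the development of magnocellular neurons, 1 rose and 1 fell, beside 12.9% and 17.1% of all tested genes. These counts are near those shares, so nothing is read from them about the neurons that make the peptides. Otp rose, with 107, 77.5 and 109 CPM in IP against 43.5, 57.5 and 63.0 CPM in Input (0.84 ± 0.19, SE, adjusted p = 0.0125, edgeR). Pou3f2 fell, with 15.3, 13.2 and 16.0 CPM in IP against 45.8, 29.7 and 31.9 CPM in Input (-1.27 ± 0.20, SE; adjusted p = 0.00271, edgeR). Sim1 stood at -0.45 ± 0.23 and Arnt2 at -0.17 ± 0.16 (SE), neither past the threshold, though Sim1 was called lower without Input replicate 1 (-0.62, adjusted p = 0.0458, edgeR). The Otp call was lost without IP replicate 3 (0.76, adjusted p = 0.054, edgeR).

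Of 9 peptides and other proteins known to be made together with vasopressin or oxytocin in some neurons, 3 rose, against 12.9% of all tested genes. They were Gal (galanin) by 1.6 ± 0.37, Cartpt (the CART peptide) by 1.57 ± 0.24 and Calb2 (calretinin) by 0.97 ± 0.25 on the log2 scale (SE; adjusted p = 0.0132, 0.00234 and 0.0189, edgeR). Cartpt had 147, 119 and 125 CPM in IP against 34.6, 61.8 and 35.2 CPM in Input. Pdyn, the dynorphin precursor that vasopressin neurons also make, stood at 0.21 ± 0.24 (SE), with 42.5 to 76.6 CPM in IP and 42.4 to 57.7 CPM in Input. Cck stood at 0.97 ± 0.37 (SE, adjusted p = 0.079, edgeR) and was called higher with the replicate as a block (0.92, adjusted p = 0.0203, edgeR) and without IP replicate 1 (1.25, adjusted p = 0.0311, edgeR). With IP replicate 3 left out Gal was no longer called (1.41, adjusted p = 0.055, edgeR), and with IP replicate 2 or 3 left out neither was Calb2 (adjusted p = 0.057 in both, edgeR). Without both libraries of replicate 3, Otp, Pou3f2, Gal, Cartpt and Calb2 were not called (adjusted p from 0.059 to 0.113, edgeR), and without both of replicate 2 neither Gal nor Calb2 was (0.059 and 0.073). The median over the 9 was 0.80, beside -0.07 over all tested genes; all these genes are made in many other neurons.

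Markers of the suprachiasmatic nucleus, the other source of vasopressin next to the preoptic area, mostly did not pass. Of 9 tested, 1 fell, the prokineticin receptor gene Prokr2, by 1.11 ± 0.27 on the log2 scale (SE, adjusted p = 0.0161, edgeR; lost without IP replicate 2 or 3 or Input replicate 3, adjusted p from 0.051 to 0.087, edgeR). That is no larger a share than the 17.1% of all tested genes called lower. Their median was 0.17. Vip, which encodes the peptide of the nucleus's core neurons, had 78.6, 7.31 and 16.5 CPM in IP against 19.8, 5.0 and 10.5 CPM in Input (1.53 ± 0.82, SE; adjusted p = 0.195, edgeR), and was called higher with the replicate as a block (1.07, adjusted p = 0.0114, edgeR). The block also called Rgs16, a regulator of G protein signalling, higher (0.83, adjusted p = 0.00113, edgeR). Nms, made in the same nucleus, had 2.03 to 3.45 CPM in IP and 0.46 to 2.15 CPM in Input. The summed level of the list was 158 to 287 CPM in IP and 111 to 210 CPM in Input, and its part in the fall of Avp was not tested.

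Markers of other cells were set beside these values. All 8 astrocyte, 8 oligodendrocyte and 7 microglial markers fell, with medians of -2.75, -3.01 and -3.29 on the log2 scale, as did 6 of 7 endothelial markers, with a median of -2.54 (3 without both libraries of replicate 2 and 2 without both of replicate 3). Of 10 pan-neuronal markers 5 rose and 1 fell, beside 12.9% and 17.1% of all tested genes, and their median was 0.52. DESeq2 called 6 of them higher and 0 lower. The 5 became 3 without IP replicate 2, IP replicate 3 or Input replicate 3, with library totals alone and without both libraries of replicate 2, and 0 without both libraries of replicate 3. Of 7 preoptic markers 1 rose, Gal, near the share of all tested genes, with a median of 0.46. DESeq2 called 3 of these higher and the replicate block 4, the others under the block being Hmx2 (1.57), Esr1 (0.71) and Six3 (0.44; adjusted p = 0.0140, 0.0123 and 0.0397, edgeR). Without IP replicate 3, or without both libraries of replicate 2 or of replicate 3, the count was 0, and without Input replicate 3 it was 2. At -1.65 and -1.22, Avp and Oxt stood between the neuronal and the glial medians. The summed level of the astrocyte markers was 796 to 992 CPM in IP and 3023 to 3662 CPM in Input, that of the oligodendrocyte markers 695 to 1021 CPM in IP and 5161 to 6538 CPM in Input, and no marker of either list was at 0. The part of RNA from untagged cells in the IP levels of Avp and Oxt was not tested.

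**Figure D3:**
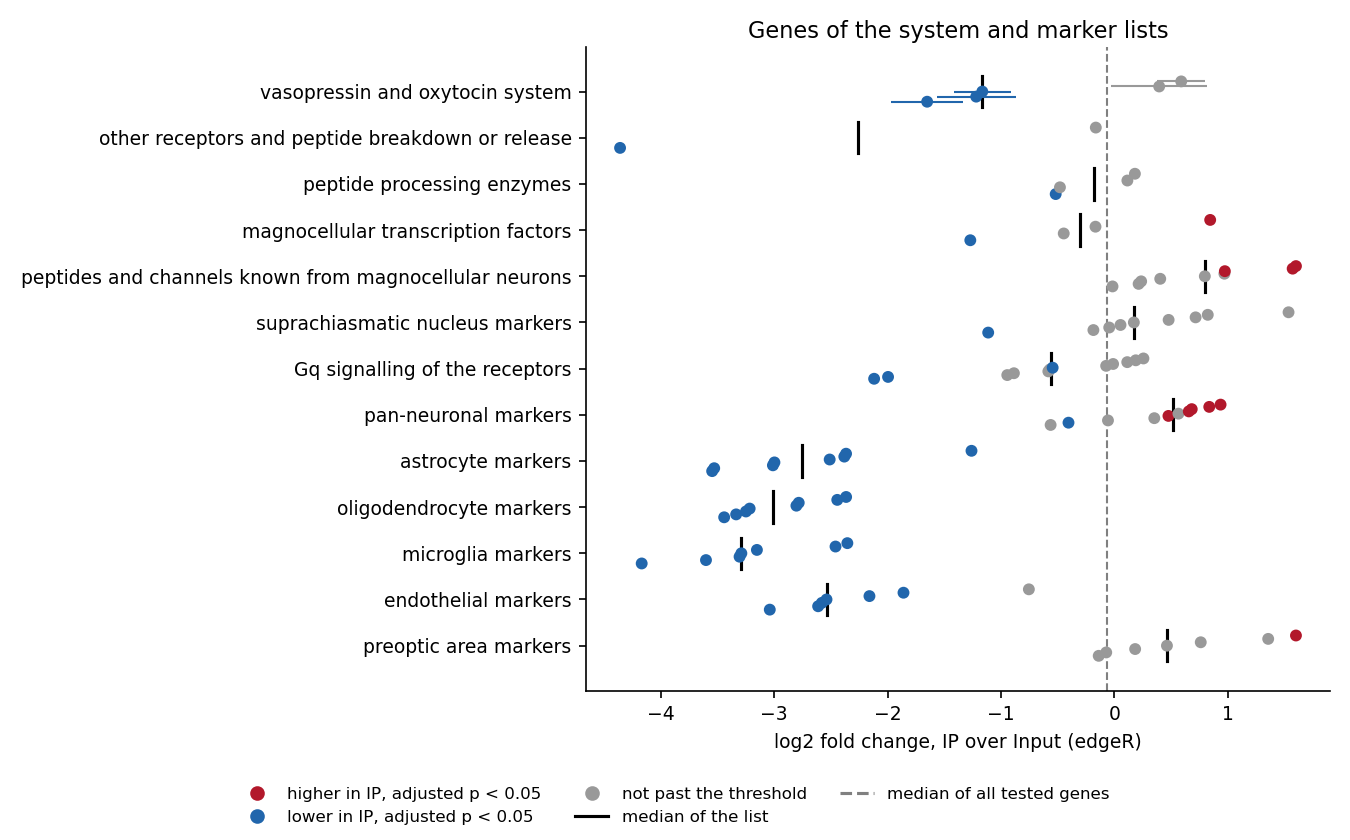
Log2 fold change of IP over Input (horizontal axis) for each tested gene of the system and of the marker lists; colours give the edgeR call at an adjusted p under 0.05, black strokes the list medians, the dashed line the median of all tested genes (-0.07), and bars on the top row ± SE. Avp, Oxt and Caprin2 stand left of the dashed line and right of most glial markers, and the receptors Avpr1a and Oxtr right of it.

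Transcript length moved with the fold change across genes. The 99 tested protein-coding genes with a length of 400 to 700 bases, the range of Avp and Oxt, had a median log2 fold change of 0.85, and 35 of them were higher and 13 lower. The 1465 of 10000 bases or more, the range of Caprin2, had a median of -0.35, with 67 higher and 454 lower. Among all 14939 tested protein-coding genes the median was -0.07, with 2235 higher and 2835 lower. After a per-library correction for gene length the log2 fold changes were -1.98 for Avp (adjusted p = 0.00122, edgeR) and -1.55 for Oxt (adjusted p = 0.00595, edgeR), both larger in size than without it, and -0.93 for Caprin2 (adjusted p = 0.0365, edgeR), smaller in size than without it.

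**Figure D4:**
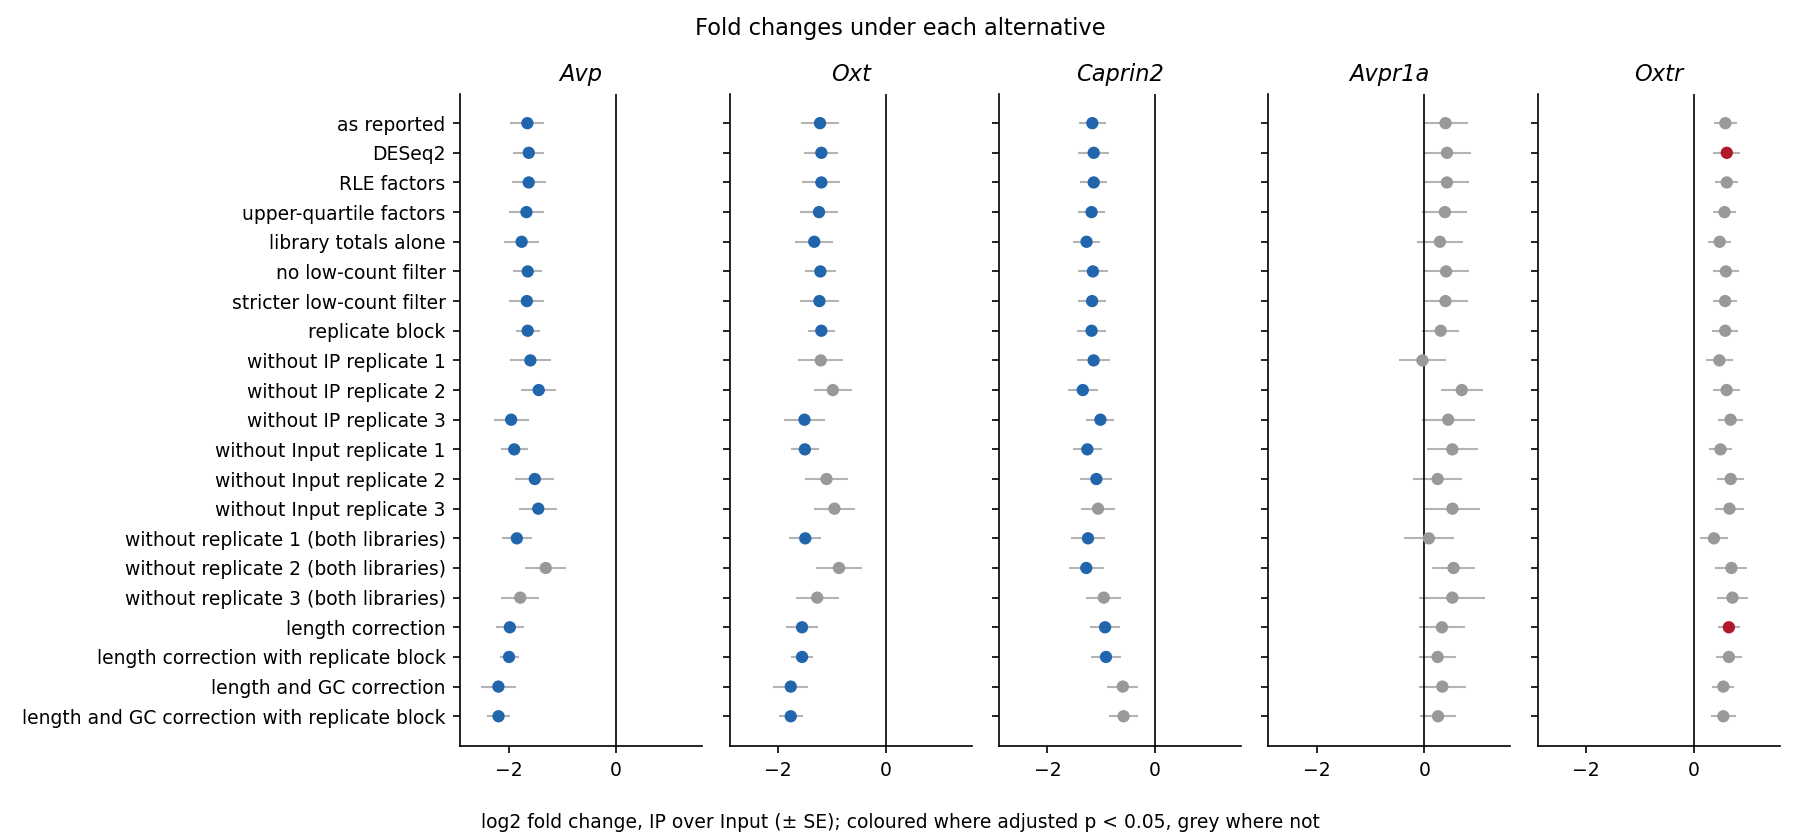
Log2 fold change of IP over Input (horizontal axis, ± SE) of each of the 5 genes as reported and under 20 alternatives; points are coloured where the adjusted p is under 0.05. Avp runs from -2.19 to -1.31, Oxt from -1.76 to -0.87, Caprin2 from -1.34 to -0.58, Avpr1a from -0.04 to 0.70 and Oxtr from 0.38 to 0.72.

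The genes with the nearest pattern over the 6 libraries were found by the root mean square difference of log2 CPM, centred on each gene's mean, among 13130 other genes of at least 1 log2 CPM. For Avp they were the long noncoding RNA AW047730 (0.087), Fam20a (0.13) and Pcolce2 (0.16), and Oxt was in place 18 (0.24). For Oxt they were Cyp4f13 (0.16), a long noncoding RNA with no symbol (0.17) and Gng5 (0.17), with Avp in place 9. Caprin2 was nearest to Lrrn1 (0.078), Foxo4 (0.089) and Stx5a (0.12), Oxtr to Adssl1 (0.032), Nagk (0.039) and Maged1 (0.060), and Avpr1a to Vill (0.15), Zic5 (0.17) and Scn7a (0.19). This measure rests on 6 libraries from 3 pools.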

How the data were processed

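Poly(A)+ RNA of 3 IP and 3 Input libraries was sequenced as paired reads of 75 bases. The tools named are HISAT2, featureCounts and DESeq2, and the build is mm39, per the submitters' processing notes and the design text; versions and the handling of strand and of reads with several matches are not given in the sources used here. The deposited table holds whole-number counts per gene, a normalized signal that the authors made by dividing counts by a size factor per library, FPKM that the authors made from these and the gene length, and log2 fold changes with p-values from the authors' comparison. Gene positions were taken from the table (mm39).

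Only the counts were tested, with edgeR 4.0.16 (R 4.3.3): TMM scaling, filterByExpr, quasi-likelihood F test of IP against Input, two-sided, Benjamini-Hochberg adjustment over 18640 genes. The SE is the fold change divided by the square root of F. FPKM served to compare levels per length. Same-numbered libraries share a pool, since Input was taken from each IP sample, and their deviations from the group means correlated at 0.26, 0.14 and 0.10; a replicate block was an alternative. The members and lists were chosen with earlier results of these data known. Named were the 5 members, Pnoc, genes of the pathway lists, up to 2 genes in each direction of other lists, and the 3 nearest patterns per member. Replicates are pools of 3 animals. The main fit took the libraries as independent although IP and Input share pools, so its p-values rest on the spread between libraries of a group. Those of the replicate block rest on the spread of the differences within pools. Intervals from a count of 0 (3 counts) cover counting error only. The corrections for length used splines of 4 degrees of freedom; that with GC content (longest GENCODE M39 transcript, 18544 genes) was added after seeing the data. DESeq2 was version 1.42.0.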

Additional observations from a re-analysis of the deposited data

How the results depend on the processing

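Leaving out single libraries, the log2 fold change ran from -1.95 to -1.44 for Avp, from -1.51 to -0.95 for Oxt, from -1.34 to -1.01 for Caprin2, from -0.035 (without IP replicate 1, the direction turned) to 0.70 for Avpr1a and from 0.48 to 0.69 for Oxtr, and 1 to 3 of the members were called lower. Without both libraries of replicate 1, Avp (-1.85), Oxt (-1.49) and Caprin2 (-1.25) stayed called. Without both libraries of replicate 2 or of replicate 3, the Avp value was -1.31 or -1.78 and the Oxt value -0.87 or -1.27, all without a call. Caprin2 was not called without both libraries of replicate 3 (-0.95). In edgeR 1 member was called lower without replicate 2 and 0 without replicate 3, against 3 in DESeq2 on all libraries. Leaving out replicate 3 left 133 genes higher and 742 lower in all, and leaving out replicate 2 left 1508 higher and 2095 lower; single libraries gave 1417 to 2630 higher and 2035 to 3080 lower. Fits without a library have fewer samples. Caprin2 was at -0.60 after length and GC correction and at -0.58 with the replicate block added. Oxtr was called with DESeq2 (0.61) and after length correction (0.65), where 1 member counted as higher; the cause was not tested. The replicate block changed no call among the 5 members, with Avp at -1.65, Oxt at -1.19, Caprin2 at -1.18, Avpr1a at 0.30 and Oxtr at 0.59. For the log2 ratio of Avp to Oxt, the pairing left the difference at -0.45 (exact sign-flip permutation test, p = 0.25, the smallest 3 pairs allow), and it ran from -0.51 to -0.39 without a library. RLE, upper-quartile and library-total scaling, no filter and a stricter filter kept the direction and the call of each member.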

Other observations

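Among 12 tested genes of the Gq cascade, through which both receptors signal, 3 fell, a count near what the 17.1% of all tested genes called lower would give, so nothing is read from it about the cascade. It was 1 without both libraries of replicate 3, and the median log2 fold change was -0.56. Plcb3, a phospholipase C gene, had 4.58, 3.49 and 4.01 CPM in IP against 21.1, 11.7 and 19.7 CPM in Input (-2.12 ± 0.27, SE; adjusted p = 0.00105, edgeR; 0.052 without both libraries of replicate 3). Itpr2, an inositol trisphosphate receptor gene known from astrocytes, had 3.43, 3.6 and 5.98 CPM in IP against 22.6, 13.7 and 15.8 CPM in Input (-2.00 ± 0.30, SE; adjusted p = 0.00216, edgeR). Gnaq, the Gq alpha subunit gene, fell by 0.55 ± 0.17 (SE, adjusted p = 0.0434, edgeR), and lost the call without any one library other than Input replicate 2 (adjusted p from 0.059 to 0.135, edgeR). Without the replicate block, the Gnaq call was also lost after correction for length (-0.41, adjusted p = 0.055, edgeR) or length and GC content (-0.39, 0.066). It was lost too without both libraries of replicate 1, 2 or 3 (adjusted p from 0.074 to 0.178, edgeR). The related gene Gna11 stood at 0.11 ± 0.12 and the calcium channel gene Itpr1 at -0.89 ± 0.44 (SE), with 381 CPM in Input replicate 1 against 109.4 and 123.2 CPM in Input replicates 2 and 3.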
